A study of Mus musculus with 152 samples.

Results

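Chemokines are small secreted or membrane-tethered proteins that steer leukocytes, and chemokine receptors are the G protein-coupled receptors that read them. The genes described here are all mouse symbols of the form Ccl, Cxcl, Ccr or Cxcr with a number, plus Cx3cl1, Cx3cr1, Xcl1, Xcr1 and Ackr1 to Ackr4. Among the 54532 genes measured in liver, 60 matched these names, and 59 had a value above 0 in at least 1 library, Cxcl15 being listed at 0 throughout. They comprise 37 ligands and 22 receptors on 11 chromosomes of GRCm38, with 14 on chromosome 11, 13 on chromosome 9, 10 on chromosome 5 and 7 on chromosome 1.

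Monocytes leave the blood along gradients of CCL2 and related ligands of CCR2, and fractalkine (CX3CL1) binds CX3CR1, a receptor carried by monocytes and by many tissue macrophages. Interferon-induced CXCL9, CXCL10 and CXCL11 attract T cells and natural killer cells through CXCR3, while CXCL1 and its relatives attract neutrophils through CXCR2. CXCL12, made in the liver by sinusoidal and stromal cells, holds CXCR4-bearing cells in place, and the atypical receptors ACKR1 to ACKR4 bind ligands without G protein signalling and thereby clear or store them.

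Livers came from C57BL/6J mice, an inbred strain, which from 8 weeks of age were fed LIDPAD, designed as a model diet of NAFLD (fatty liver disease without alcohol), or, as controls, a purified diet for 1, 4, 8, 12, 16, 32 or 48 weeks. The comparison asks at which durations a transcript differed between the diets. The labels name no transgene, deletion or drug. The 152 deposited samples formed blocks of 4 that differed by no more than the sampling noise of parts of a single library, so each block was counted once, which left 18 control and 20 LIDPAD libraries. Each diet had 2 libraries in weeks 1, 4, 8 and 12 and 3 in week 16. Week 32 had 4 libraries of control and 5 of LIDPAD livers, week 48 had 3 and 4. Depth in units of 1000000 reads ran from 10.9 to 53.8 per library, the lowest in week 32. The labels do not say that libraries came from separate animals, so the spread behind each p-value is one between libraries and may be technical. Levels are in FPM, the authors' counts divided by a size factor and expressed per 1000000. A log2 change is the difference of mean log2(FPM + 0.5), LIDPAD minus control, with its SE, and it understates the change of genes near 0.5 FPM. A gene is called when limma's p, adjusted over all genes tested in that week, is under 0.05.

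Some libraries stood apart. In week 48, control library 3 differed more than 4-fold from the rest of its group in 548 genes (3 to 107 in the other 6 libraries of that week), and 15 of the chemokine genes were more than 2-fold above the rest of the group there. In week 32, LIDPAD library 1 differed in 343 genes and had 13 chemokine genes more than 2-fold above its group, with summed plasma cell markers (Jchain, Mzb1, Igha, Ighm) of 1640 FPM. LIDPAD library 2 of that week differed in 174 genes and had the highest macrophage sum, 1590 FPM. In week 4 a gap of over 4-fold separated the 2 control libraries in 124 genes, and library 2 had 8 chemokine genes more than 2-fold above library 1.

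Liver markers were present: summed hepatocyte markers (Alb, Apoa1, Ttr, Serpina1a, Cps1) held 70400 to 85300 FPM in control and 35300 to 43800 FPM in LIDPAD libraries at week 16, and adipocyte and pancreas sums were at most 1.24 FPM in any library. Markers of several cell types moved with diet. All 8 macrophage markers (Adgre1, Cd68, Csf1r, Lyz2, Itgax, Cd14, Gpnmb, Trem2) were called higher at weeks 12, 16 and 32, and 7 of 8 at weeks 8 and 48. Their sum was 65.0 to 140 FPM in control and 324 to 450 FPM in LIDPAD libraries at week 16, 56.9 to 126 against 430 to 1590 FPM at week 32, and 80.8 to 281 against 534 to 688 FPM at week 48. The week 48 control range includes library 3. For scale, 3.85% of all tested genes were called higher at week 8, 8.99% at week 12, 16.3% at week 16, 18.0% at week 32 and 6.54% at week 48. Of 5 markers of Kupffer cells, the resident macrophages of the liver, 2 were called higher at week 16 and 1 at weeks 8, 12, 32 and 48. At weeks 4 and 48, 1 was called lower (0.166% and 3.34% of all tested genes). Markers of cholangiocytes, the bile duct cells (Krt19, Krt7, Epcam, Sox9, Spp1), summed to 18.8 to 20.2 FPM in control and 104 to 161 FPM in LIDPAD libraries at week 16, with 3 of 4 tested called higher. Those of dividing cells (Mki67, Top2a, Ccnb1, Cdk1) summed to 2.70 to 4.49 against 22.8 to 32.9 FPM there, with 3 of 3 tested called. Stellate cell markers (Lrat, Des, Dcn, Reln, Col1a1, Acta2) summed to 258 to 325 against 512 to 542 FPM, with 5 of 6 called. T cell markers summed to 1.83 to 2.95 against 32.2 to 46.8 FPM, and 1 of 8, Themis, passed the filter and was called. The other markers of this list stayed under the filter, so the sum does not stand for the list as a whole. Neutrophil markers summed to 2.03 to 4.06 against 4.67 to 7.88 FPM, with 0 of 1 tested called. In bulk liver, fewer cells of a type and less RNA per cell cannot be told apart, and the part of cell numbers in the results that follow was not tested.

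**Figure D1:**
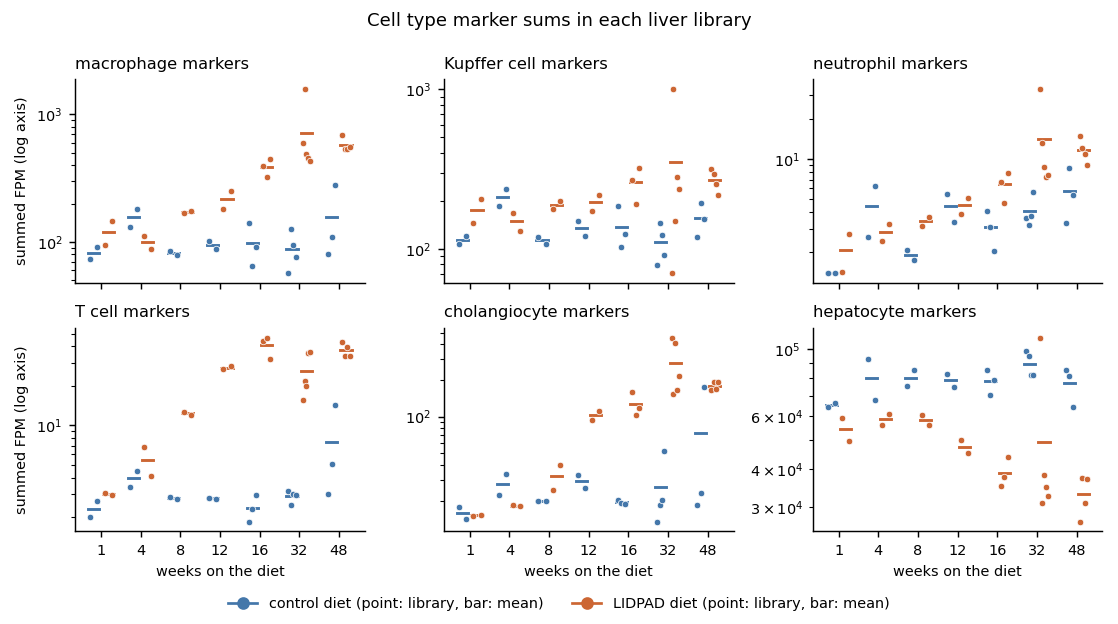
Summed FPM of marker lists (log axis) against weeks on the diet, 1 point per library and a bar at the mean of each diet. From week 8 on the macrophage sums of LIDPAD libraries lie above every control library of the same week, while the hepatocyte sum of LIDPAD library 1 at week 32 (109000 FPM) lies above all control libraries of that week.

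The chemokine genes went from almost no called difference in weeks 1 and 4 to a broad rise at weeks 16 and 32. In week 1, 1 of 15 tested members was higher (0.726% of all tested genes were) and 0 were lower (1.27%). Week 4 had 0 of 17 higher (0.121%) and 0 lower (0.166%) by limma. There 3 members had an unadjusted p under 0.05, edgeR called 0 and DESeq2 called 1, Ccl9. At week 8, 7 of 20 were higher (3.85%) and 0 lower (1.75%), and at week 12, 10 of 22 were higher (8.99%) and 2 lower (6.25%). Week 16 had 13 of 22 higher (16.3%) and 2 lower (12.0%), and week 32 had 13 of 24 higher (18.0%) and 0 lower (8.82%). In week 48, 7 of 26 were higher (6.54%) and 0 lower (3.34%), and without control library 3 the split was 16 and 1 (22.3% and 15.4%). After each library was rescaled to the same total, the median log2 change of all genes was 0.02 at week 1 and up to 0.33 (week 32). The week 16 split was then 14 higher and 0 lower (28.3% and 5.74% of all genes), that of week 32 was 15 and 0 (28.4% and 2.53%), and that of week 48 was 12 and 0 (19.3% and 1.27%). Over the 7 weeks, 19 members were called at least once, 16 of them higher, 3 lower (Cxcl12, Cxcl13, Ccl27a) and 0 in both directions.

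The tested members' median log2 change was 0.36 at week 1, 0.00 at week 4, 0.47 at week 8, 0.31 at week 12, 1.28 at week 16, 1.30 at week 32 and 0.72 at week 48, against -0.01 to 0.04 over all tested genes. These medians are descriptions. The filter asked for 1 FPM in a number of libraries equal to the size of the smaller group. A gene that met it only through LIDPAD had to be high there, and a gene that met it only through control had to be high in control. Cxcl13, called lower at week 12, met it through control alone. Of the 13 members higher at week 16, 7 met the minimum in control libraries themselves (among them Ccl6, Ccr2, Cxcl1, Cxcl10, Cxcl16, Cxcl9) and 6 did not (Ccl2, Ccr1, Cx3cl1, Cx3cr1, Cxcl14, Cxcr4). At week 32 the split was 4 (among them Ccl6, Cxcl16 and Cxcl9) and 9. Members higher at week 8 divided into 4 and 3 (the 3 being Ccl2, Cx3cr1, Cxcl10). Those at week 12 divided into 6 and 4 (Ccl2, Cx3cr1, Cxcl14, Cxcr4), and those at week 48 into 3 and 4 (Ackr3, Ccl5, Cx3cr1, Cxcr4). The shares of members called higher are therefore descriptions as well. In all, 28 of 59 members were tested in at least 1 week, 14 in every week, and 31 never passed, the highest value among those being 7.36 FPM for Ccl8 in LIDPAD library 1 of week 32. Every LIDPAD library lay above every control library for 14 of 22 tested members at week 16 (23.5% of all tested genes), 13 of 24 at week 32 (17.0%) and 11 of 26 at week 48 (14.1%). The reverse held for 3 (19.7%), 0 (8.8%) and 0 (10.7%). In weeks 1 to 12, with 2 libraries a diet, such separation was common in all genes: above control stood 7 of 15 members (24.2% of all genes), 2 of 17 (21.3%), 10 of 20 (28.3%) and 10 of 22 (29.3%), and below it 4 (24.4%), 2 (20.9%), 4 (27.1%) and 4 (28.2%).

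**Figure D2:**
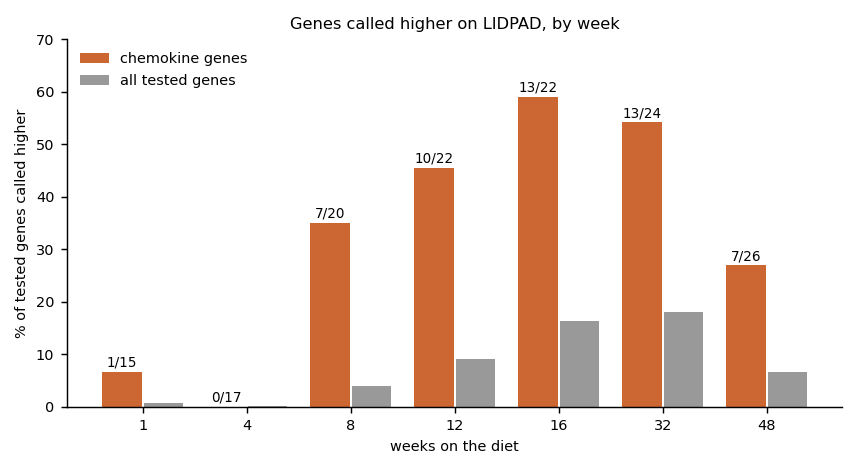
Percentage of tested genes called higher on LIDPAD (limma, adjusted p under 0.05) against weeks on the diet, with the number of members called of those tested above each bar. At week 16, 13 of 22 chemokine genes were called, against 16.3% of all tested genes.

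**Figure D3:**
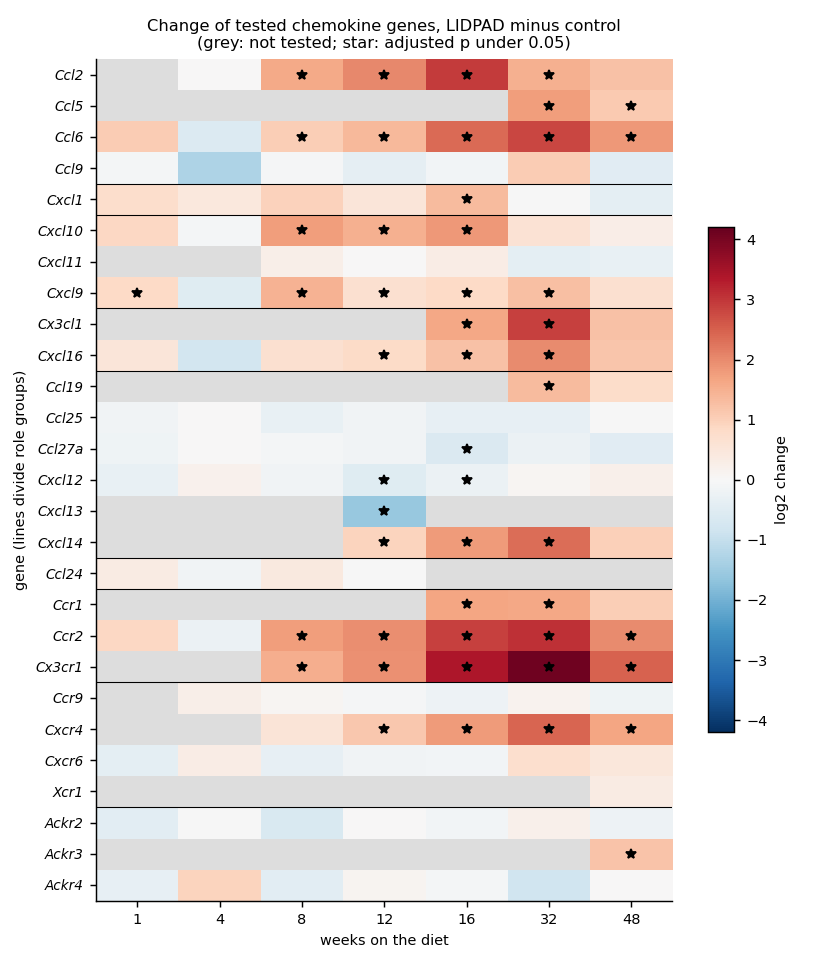
Log2 change of chemokine genes tested in at least 1 week, LIDPAD minus control, by week. Stars mark adjusted p under 0.05 and grey marks weeks in which a gene was not tested. Cx3cr1, Ccr2 and Ccl6 are starred in each week from 8 to 48.

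Values of the first weeks show where the later rises started. In week 1 the LIDPAD libraries lay above control for Ccr2 (1.09 and 1.02 against 1.72 and 3.07 FPM, log2 change 0.86 ± 0.26, adjusted p = 0.175), Cxcl10 (0.86, adjusted p = 0.1) and Cxcl16 (0.51, adjusted p = 0.168), and of these 0 passed the threshold. Ccl6 held 3.08 and 10.0 FPM in LIDPAD libraries 1 and 2, so a single library carried its change of 1.05. In week 4 the control libraries disagreed: libraries 1 and 2 held 9.43 and 23.7 FPM of Cxcl9, 1.73 and 8.67 FPM of Cxcl10, 0.352 and 4.19 FPM of Ccl2 and 3.98 and 10.3 FPM of Ccl6. Library 2 was the higher for each of these 4 genes, and the LIDPAD values of Cxcl9 (11.1 and 9.86 FPM) and Cxcl10 (3.42 and 4.15 FPM) lay between the control libraries.

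Among the monocyte and macrophage attractants, Ccl2 and Ccl6 were called higher from week 8, Ccl5 was called in the 2 weeks in which it passed the filter, and limma called Ccl9 in no week. Of the 9 genes of this group, 3 were tested and 2 higher at week 16 (16.3% of all tested genes were), and 4 were tested and 3 higher at week 32 (18.0%). Ccl2 in both weeks and Ccl5 at week 32 met the minimum of the filter through LIDPAD libraries alone, so these counts are descriptions. Ccl2 encodes the main ligand of CCR2. At week 16 it measured 0.0790, 0.182 and 0.231 FPM in the control libraries and 4.94, 3.06 and 6.17 FPM in the LIDPAD libraries (log2 change 2.94 ± 0.26, adjusted p = 2.34e-05). No LIDPAD library overlapped the control range, which stayed under 0.25 FPM. Its change was 1.59 (adjusted p = 0.0311) at week 8, 2.03 (adjusted p = 0.000648) at week 12 and 1.49 (adjusted p = 0.00218) at week 32. At week 48 it missed the threshold (log2 change 1.24 ± 0.37, adjusted p = 0.0747), with 0.166, 0.599 and 1.59 FPM in the control libraries and 2.81, 1.82, 2.73 and 1.71 FPM in the LIDPAD libraries. Without control library 3 the change there was 1.67 with an adjusted p of 0.000673.

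Ccl6, whose product is a mouse CC chemokine that binds CCR1, was called higher in all 5 weeks from 8 to 48. At week 12 it measured 5.36 and 2.80 FPM in the control libraries and 7.18 and 15.8 FPM in the LIDPAD libraries (log2 change 1.35 ± 0.36, adjusted p = 0.0369), LIDPAD library 2 being the high one. Without that library the change was 0.81 with an adjusted p of 0.142, and DESeq2 (adjusted p = 0.157), limma with no filter (0.103) and limma with no mean-variance trend (0.0898) did not call it. Week 16 libraries held 3.68, 2.45 and 2.93 FPM in the control libraries and 16.7, 14.5 and 22.3 FPM in the LIDPAD libraries (log2 change 2.37 ± 0.19, adjusted p = 1.15e-05), with no overlap. At week 32 the values were 1.96, 4.77, 2.72 and 3.99 FPM in the control libraries and 23.5, 76.6, 14.5, 20.7 and 19.1 FPM in the LIDPAD libraries (log2 change 2.80 ± 0.42, adjusted p = 0.000833), LIDPAD library 2 standing far above the others of its group. Without that library the change was 2.41 with an adjusted p of 0.000167. Week 48 gave 2.48, 6.72 and 8.87 FPM in the control libraries and 26.6, 19.1, 17.0 and 19.0 FPM in the LIDPAD libraries (log2 change 1.81 ± 0.36, adjusted p = 0.0231).

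Ccl9 lies next to Ccl6 on chromosome 11 (Ccl9 from 83572919 to 83578636 and Ccl6 from 83587882 to 83593087, GRCm38, both on the minus strand) and also encodes a CCR1 ligand. The limma fit called it in no week. In week 16 it measured 34.8, 21.7 and 31.0 FPM in the control libraries and 24.4, 21.8 and 35.1 FPM in the LIDPAD libraries (log2 change -0.10 ± 0.20, adjusted p = 0.73), and the ranges overlapped. Week 32 split the LIDPAD libraries, 85.7, 96.2, 48.5, 28.0 and 27.7 FPM against 16.1, 23.2, 28.8 and 28.7 FPM in control (log2 change 1.07 ± 0.38, adjusted p = 0.0571). Other fits called that week: DESeq2 (1.18, adjusted p = 0.00975), edgeR (1.19, adjusted p = 0.0429), and limma after rescaling (1.37, adjusted p = 0.00914). In week 48 the high library was control library 3, in 27.9, 26.3 and 100 FPM in the control libraries and 32.1, 31.3, 26.2 and 30.0 FPM in the LIDPAD libraries (log2 change -0.49 ± 0.42, adjusted p = 0.519), and without it the change was 0.14 (adjusted p = 0.299). Week 4 had 29.7 and 51.2 FPM in the control libraries and 15.8 and 15.2 FPM in the LIDPAD libraries (log2 change -1.30 ± 0.25, adjusted p = 0.14), and DESeq2 called that difference (-1.38, adjusted p = 0.000293).

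The windows before the start sites of these neighbours are shown because the genes lie side by side and Ccl6 was called in 5 weeks and Ccl9 in 0. Whether the changes of the genes differ was not tested. They come from RefSeq (GRCm38.p6), run 5′ to 3′ and end at the base before the annotated start: Ccl6 at chr11:83593088-83593337, minus strand and Ccl9 at chr11:83578637-83578886, minus strand. Capitals mark GGG, any 2 bases and TTTCC, letters of a kind that NF-kappa-B proteins bind, on either strand.
Ccl6: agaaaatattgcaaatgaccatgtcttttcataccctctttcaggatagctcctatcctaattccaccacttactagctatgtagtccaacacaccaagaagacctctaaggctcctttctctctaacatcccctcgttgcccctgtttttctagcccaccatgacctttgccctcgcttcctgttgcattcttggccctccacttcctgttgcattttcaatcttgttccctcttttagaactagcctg
Ccl9: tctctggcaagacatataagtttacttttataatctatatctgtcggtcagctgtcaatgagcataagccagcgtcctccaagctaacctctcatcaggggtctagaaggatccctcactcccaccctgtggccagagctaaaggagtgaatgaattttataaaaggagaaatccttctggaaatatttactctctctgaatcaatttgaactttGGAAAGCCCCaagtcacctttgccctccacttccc
Ccl9 holds the letters once, starting at base -35 on the opposite strand, and the Ccl6 window holds none. Of 59 members, 44 had RefSeq windows, 51 in number, each covering 250 bases before and 50 after a start. This spelling, chosen after the data were seen, was found in 6 of these 51 windows (11.8%; Ccl20, Ccl9, Ccr3, Cxcl1, Cxcl2, Cxcl3) and in 1.63% of 32851 windows of all genes. A wider spelling that includes it, GGG and CC with any 5 bases between them, was in 29 of 51 (56.9%) and in 50.8% of all. A match is a description of letters, not a bound site.

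Ccl5, a ligand of CCR1 and CCR3 that T cells and macrophages make, passed the filter only at weeks 32 and 48. In week 32 it measured 0.218, 0.193, 0.532 and 0.0683 FPM in the control libraries and 2.89, 1.36, 2.63, 1.98 and 1.54 FPM in the LIDPAD libraries (log2 change 1.77 ± 0.26, adjusted p = 0.000796), and in week 48 0.410, 0.597 and 0.976 FPM in the control libraries and 1.81, 1.77, 2.24 and 2.01 FPM in the LIDPAD libraries (log2 change 1.11 ± 0.21, adjusted p = 0.0206). The groups did not overlap in either week. Before that it was under the filter, and the libraries were already apart at week 8, with 0.165 and 0.0943 FPM in the control libraries and 0.734 and 0.737 FPM in the LIDPAD libraries (with no filter, log2 change 0.97 ± 0.19, adjusted p = 0.0509). At week 16 the fit with no filter did not call it either (log2 change 0.78 ± 0.26, adjusted p = 0.0723). Ccl3, Ccl4, Ccl7, Ccl8 and Ccl12 stayed under the filter. Without the filter 23 of 55 members with a value were higher and 2 lower at week 16 (7.98% and 5.18% of all genes), and 20 of 57 were higher at week 32 (8.31%). Among these attractants Ccl3, Ccl4 and Ccl7 were called higher at weeks 16 and 32, Ccl4 at week 12 too, Ccl12 at week 16 and Ccl8 at week 48, where 2.75% (week 12) and 2.21% (week 48) of all genes were called higher. Ccl4, which encodes a macrophage inflammatory protein, had no read in the 3 control libraries of week 16 and 0.751, 0.480 and 0.597 FPM in the LIDPAD libraries (log2 change 1.14 ± 0.16, adjusted p = 0.00047). Ccl8 at week 32 was listed at 0 in all 4 control libraries and measured 7.36, 0.630, 0.305, 0.189 and 0.565 FPM in the LIDPAD libraries, so its highest value was in the library with the plasma cell transcripts (log2 change 1.48 ± 0.59, adjusted p = 0.14).

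Both membrane-bound ligands that can be shed as soluble forms, Cx3cl1 and Cxcl16, rose at weeks 16 and 32. Cx3cl1, fractalkine, measured 0.316, 0.244 and 0.532 FPM in the control libraries and 1.76, 2.23 and 2.57 FPM in the LIDPAD libraries at week 16 (log2 change 1.64 ± 0.24, adjusted p = 0.000488). At week 32 it reached 7.96, 7.29, 10.7, 3.46 and 3.38 FPM against 0.0970, 0.287, 0.411 and 0.942 FPM in control (log2 change 2.87 ± 0.37, adjusted p = 0.000348). In neither week did the diets overlap. Week 48 held 0.485, 0.561 and 5.83 FPM in the control libraries and 3.54, 3.29, 4.48 and 4.48 FPM in the LIDPAD libraries (log2 change 1.23 ± 0.60, adjusted p = 0.232), and control library 3 was above every LIDPAD library. Without it the change was 2.11 with an adjusted p of 1.34e-05. Cholangiocyte markers were high in the same control library, with 18.5, 23.4 and 176 FPM summed in the control libraries and 166, 194, 170 and 196 FPM in the LIDPAD libraries, and their part in the Cx3cl1 values was not tested.

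Cxcl16, the ligand of CXCR6, was called at weeks 12, 16 and 32. In week 16 it measured 6.44, 4.96 and 4.60 FPM in the control libraries and 12.9, 12.7 and 13.7 FPM in the LIDPAD libraries (log2 change 1.23 ± 0.15, adjusted p = 0.000142), a narrow range in both diets. Week 32 values fell into sets, 28.8, 31.3, 25.6, 12.5 and 12.0 FPM in LIDPAD libraries 1 to 5 against 3.91, 6.26, 4.48 and 4.76 FPM in control (log2 change 1.98 ± 0.30, adjusted p = 0.00086). The 3 libraries above 25 FPM share the way week 16 reads were divided among columns, and the 2 near 12 FPM share that of week 48. Within the sets the change was 2.45 and 1.28, and the only control library in the latter set is library 4. Exons of Cxcl16 share 552 bases with Zmynd15 on the other strand, and whether counting used strand is not given in the sources used here, so reads of the pair may not be separated. Xcl1, the XCR1 ligand of T cells and natural killer cells, never passed the filter.

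**Figure D4:**
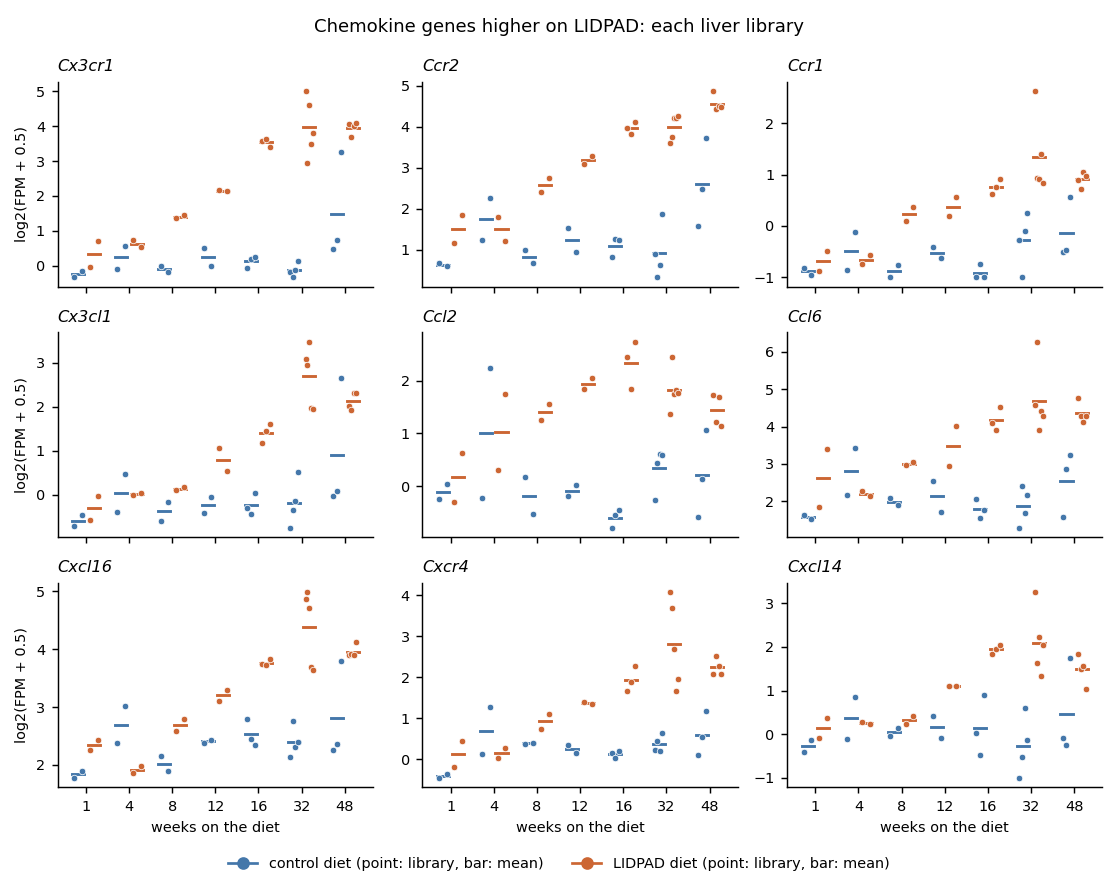
Log2(FPM + 0.5) of 9 chemokine genes against weeks on the diet, 1 point per library and a bar at the mean of each diet. At week 16 every LIDPAD library lies above every control library in all 9 panels, and at week 48 control library 3 lies near or above the LIDPAD libraries for Cx3cl1, Cxcl14 and Cxcl16.

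Of the interferon-induced CXCR3 ligands, Cxcl9 was called higher at weeks 1, 8, 12, 16 and 32 and Cxcl10 at weeks 8, 12 and 16. Cxcl9 was the only member called at week 1, with 5.42 and 4.63 FPM in the control libraries and 8.93 and 9.69 FPM in the LIDPAD libraries (log2 change 0.83 ± 0.13, adjusted p = 0.0308). Its call there was lost when control library 1 or control library 2 was left out. At week 8 it measured 4.90 and 3.87 FPM in the control libraries and 11.0 and 15.3 FPM in the LIDPAD libraries (log2 change 1.47 ± 0.19, adjusted p = 0.0123), without overlap. Changes at weeks 12, 16 and 32 were 0.68 (adjusted p = 0.0455), 0.83 (adjusted p = 0.0165) and 1.27 (adjusted p = 0.0208). In week 32 LIDPAD library 1 lay within the control range, 7.45, 8.36, 15.2, 16.0 and 16.0 FPM against 8.26, 2.94, 2.71 and 6.85 FPM, and the call was lost without control library 2, control library 3 or LIDPAD library 3. Week 48 held 4.16, 5.17 and 15.9 FPM in the control libraries and 12.5, 12.0, 8.74 and 14.0 FPM in the LIDPAD libraries, with control library 3 the highest of the week (log2 change 0.68 ± 0.40, adjusted p = 0.327).

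Cxcl10 measured 0.987 and 1.10 FPM in the control libraries and 4.01 and 5.52 FPM in the LIDPAD libraries at week 8 (log2 change 1.75 ± 0.20, adjusted p = 0.00928) and 1.85, 1.15 and 1.06 FPM in the control libraries and 5.45, 4.11 and 9.05 FPM in the LIDPAD libraries at week 16 (log2 change 1.81 ± 0.27, adjusted p = 0.000588), clear of each other both times. At week 12 the change was 1.48 (adjusted p = 0.00277). It was not called at week 32 (log2 change 0.62 ± 0.36, adjusted p = 0.227), where LIDPAD values of 1.82, 1.98, 4.22, 5.54 and 4.28 FPM overlapped 1.51, 1.24, 1.86 and 3.98 FPM in control. In week 48 control library 3 held the highest value, in 0.675, 2.94 and 10.9 FPM in the control libraries and 4.60, 4.08, 3.62 and 3.17 FPM in the LIDPAD libraries (log2 change 0.27 ± 0.64, adjusted p = 0.83). Without it Cxcl10 was called (1.11, adjusted p = 0.0269). Cxcl10 shares 133 exon bases with Art3 on the other strand. Cxcl11, for which C57BL/6 mice carry a non-functional allele, was tested in 5 weeks and called in 0, with changes from -0.41 to 0.30. Of its exon bases 1582 are shared with the predicted gene Gm2673.

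The windows before Cxcl9 (chr5:92328080-92328329, minus strand) and Cxcl10 (chr5:92348890-92349139, minus strand), from RefSeq GRCm38.p6, are printed because these neighbours on chromosome 5 rose together at weeks 8, 12 and 16. Capitals mark GAAA repeated after any 2 bases, the core letters of an interferon-stimulated response element, searched on both strands.
Cxcl9: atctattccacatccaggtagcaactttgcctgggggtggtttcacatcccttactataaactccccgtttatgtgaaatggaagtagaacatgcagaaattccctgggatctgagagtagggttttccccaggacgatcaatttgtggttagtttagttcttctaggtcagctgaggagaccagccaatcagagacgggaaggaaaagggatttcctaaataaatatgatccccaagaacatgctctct
Cxcl10: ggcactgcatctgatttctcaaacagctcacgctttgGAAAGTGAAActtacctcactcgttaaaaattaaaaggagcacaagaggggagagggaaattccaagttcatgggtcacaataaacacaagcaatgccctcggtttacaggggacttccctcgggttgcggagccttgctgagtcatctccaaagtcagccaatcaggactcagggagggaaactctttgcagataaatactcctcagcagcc
Cxcl10 holds the letters from base -213, and the Cxcl9 window has no match. The repeat occurred in 3 of 51 member windows (5.88%; Ccl19, Cxcl10, Cxcl14) and in 3.44% of all 32851 windows. Cxcl9 and Cxcl10 both hold GGG and CC with 5 bases between them.

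Cxcl1, a ligand of CXCR2, was called by limma at week 16 alone, with 4.77, 3.14 and 3.56 FPM in the control libraries and 10.4, 7.57 and 13.7 FPM in the LIDPAD libraries (log2 change 1.33 ± 0.22, adjusted p = 0.000966) and no overlap. The diets did not overlap at week 8 either, with 2.57 and 1.88 FPM in the control libraries and 5.86 and 3.88 FPM in the LIDPAD libraries (log2 change 0.97 ± 0.23, adjusted p = 0.0628). There DESeq2 (adjusted p = 0.0103), limma after rescaling (0.0461) and limma with the replicate block (0.0429) called it, and edgeR did not (0.0673). In week 32 the control libraries spanned more than the LIDPAD libraries, 1.47, 2.89, 30.0 and 39.9 FPM against 12.6, 13.0, 5.17, 9.18 and 6.72 FPM (log2 change -0.03 ± 0.80, adjusted p = 0.984). In the libraries of that week that share the week 48 division of reads among columns the change was -2.27, and in the others it was 0.77. The only control library in the former set is library 4, with 39.9 FPM. Week 48 gave 4.36, 22.9 and 21.9 FPM in the control libraries and 12.3, 8.43, 10.3 and 8.72 FPM in the LIDPAD libraries (log2 change -0.40 ± 0.51, adjusted p = 0.674), and in week 4 LIDPAD library 2 held 47.3 FPM against 2.80 FPM in library 1. Its RefSeq window (chr5:90890995-90891244, plus strand) is shown as a member window in which GGG, any 2 bases and TTTCC, in capitals, was found on both strands.
Cxcl1: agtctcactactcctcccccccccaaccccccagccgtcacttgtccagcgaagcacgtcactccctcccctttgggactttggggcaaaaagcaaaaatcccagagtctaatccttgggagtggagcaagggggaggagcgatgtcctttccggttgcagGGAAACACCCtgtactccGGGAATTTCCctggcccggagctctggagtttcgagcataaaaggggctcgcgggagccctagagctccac
The matches start at bases -89 (opposite strand) and -71. Cxcl2, Cxcl3 and Cxcl5 stayed under the filter. With no filter Cxcl2 (log2 change 0.77 ± 0.18, adjusted p = 0.0117) and Cxcl5 (log2 change 1.20 ± 0.25, adjusted p = 0.00667) were higher at week 16, and no library held more than 1.81 FPM of either gene. The receptors Cxcr1 and Cxcr2 never passed the filter, Cxcr2 measuring 0.0764, 0.0964 and 0.0741 FPM in the control libraries and 0.114, 0.385 and 0.608 FPM in the LIDPAD libraries at week 16.

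**Figure D5:**
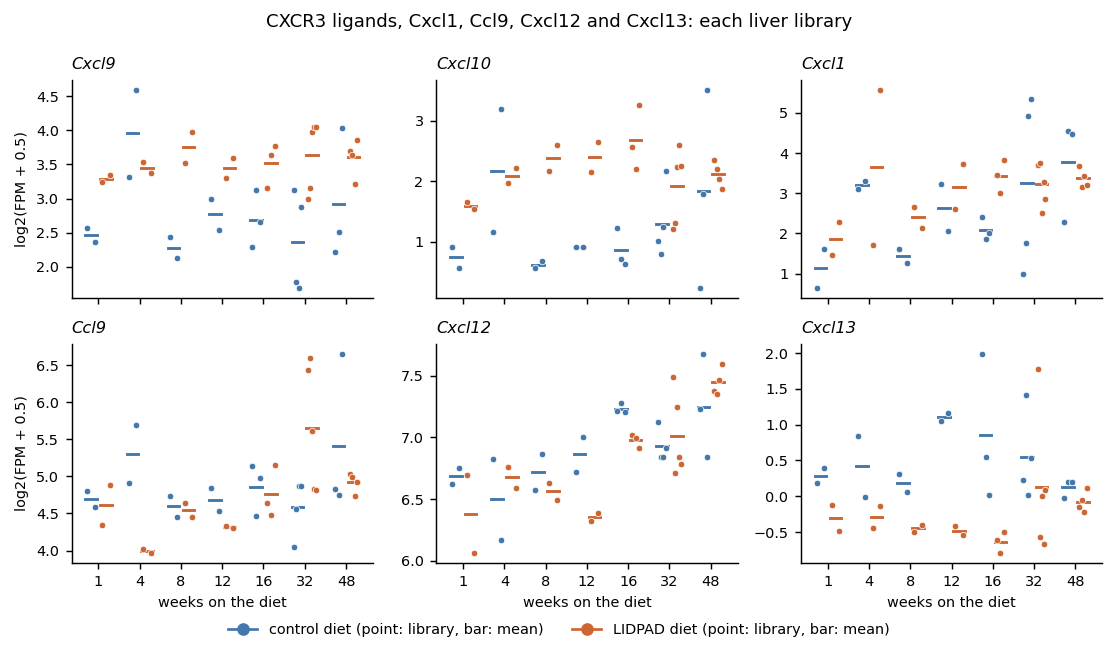
Log2(FPM + 0.5) of Cxcl9, Cxcl10, Cxcl1, Ccl9, Cxcl12 and Cxcl13 against weeks on the diet, 1 point per library and a bar at the mean of each diet. Control libraries of weeks 32 and 48 spread widely for Cxcl1, and Cxcl13 of LIDPAD libraries lies below control at weeks 1, 4, 8, 12 and 16.

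Lymphoid and homeostatic ligands moved in both directions. Cxcl12, the CXCR4 ligand, was lower at week 12, with 105 and 128 FPM in the control libraries and 79.6 and 83.0 FPM in the LIDPAD libraries (log2 change -0.51 ± 0.12, adjusted p = 0.0233), and at week 16, with 148, 155 and 147 FPM in the control libraries and 129, 127 and 120 FPM in the LIDPAD libraries (log2 change -0.26 ± 0.08, adjusted p = 0.0419). The groups did not overlap in either week. At week 16 leaving out any of the 6 libraries ended the call (adjusted p from 0.0534 to 0.152), as did leaving out either LIDPAD library at week 12 (0.154 and 0.175). Rescaling each library to the same total ended both calls, with changes of -0.31 at week 12 and -0.05 at week 16. At weeks 32 and 48 the changes were 0.09 (adjusted p = 0.756) and 0.20 (adjusted p = 0.538). Sinusoidal endothelial markers (Stab2, Clec4g, Lyve1, Fcgr2b), whose cells make CXCL12, summed to 160 to 168 FPM in control and 151 to 157 FPM in LIDPAD libraries at week 16. Of these 4 markers 1, Lyve1, was called higher there and 0 lower (16.3% and 12.0% of all tested genes). The part of these cells in the Cxcl12 values was not tested.

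Cxcl13, the B cell attractant that binds CXCR5, was tested at week 12 alone, with 1.57 and 1.75 FPM in the control libraries and 0.247 and 0.189 FPM in the LIDPAD libraries (log2 change -1.59 ± 0.23, adjusted p = 0.00266). It met the minimum of the filter through control libraries alone, so a test there required a high control level. In week 16, under the filter, it measured 3.47, 0.967 and 0.517 FPM in the control libraries and 0.157, 0.0792 and 0.205 FPM in the LIDPAD libraries, again without overlap (log2 change -1.49 ± 0.40, adjusted p = 0.0253 with no filter). Every LIDPAD library also held less Cxcl13 than every control library at weeks 1, 4 and 8 (24.4%, 20.9% and 27.1% of all tested genes did). At week 32 LIDPAD library 1, the library rich in plasma cell transcripts, held the highest value, in 0.674, 2.18, 0.514 and 0.949 FPM in the control libraries and 2.92, 0.172, 0.503, 0.131 and 0.564 FPM in the LIDPAD libraries. Ccl27a, a skin-associated ligand of CCR10, was lower at week 16 with 5.88, 6.22 and 5.81 FPM in the control libraries and 3.36, 3.75 and 4.19 FPM in the LIDPAD libraries (log2 change -0.60 ± 0.15, adjusted p = 0.012). Without LIDPAD library 1 of that week its adjusted p was 0.0573, and after rescaling it was 0.0554. Ccl27a and Ccl27b are near-identical copies, so their reads may be divided uncertainly. The same holds for Ccl21a and Ccl21b, which stayed under the filter.

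Cxcl14, a homeostatic chemokine of epithelia and stroma, rose at weeks 12, 16 and 32. Week 16 gave 0.528, 0.219 and 1.36 FPM in the control libraries and 3.08, 3.39 and 3.63 FPM in the LIDPAD libraries (log2 change 1.80 ± 0.31, adjusted p = 0.00142), and week 32 gave 0, 0.196, 1.02 and 0.417 FPM in the control libraries and 9.09, 2.61, 4.16, 2.02 and 3.61 FPM in the LIDPAD libraries (log2 change 2.36 ± 0.41, adjusted p = 0.00196). The diets were separate in both weeks, and without LIDPAD library 1 the week 32 change was 2.07 (adjusted p = 0.00216). In week 48 the control libraries held 0.444, 0.343 and 2.86 FPM and the LIDPAD libraries 3.10, 2.31, 2.48 and 1.54 FPM (log2 change 1.01 ± 0.47, adjusted p = 0.214). Without control library 3 it was called (1.65, adjusted p = 0.000364). Ccl19, which with CCL21 draws CCR7-bearing dendritic cells and T cells, was called at week 32 with 0.315, 0.301, 0.636 and 0.602 FPM in the control libraries and 4.43, 1.14, 2.21, 0.911 and 2.01 FPM in the LIDPAD libraries (log2 change 1.33 ± 0.35, adjusted p = 0.0155). Without LIDPAD library 1, its highest, it did not pass the filter and was not tested. Ccl25, a CCR9 ligand, was tested in all 7 weeks and called in 0, its changes lying between -0.34 and 0.03. It shares 204 exon bases with Elavl1. Ccl28 and Cxcl17 never passed the filter.

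Attractants of eosinophils, mast cells and T helper cells were scarce. Ccl24, the macrophage-made eotaxin, was tested in weeks 1 to 12 and called in 0, with changes from -0.16 to 0.40. The others (Ccl1, Ccl11, Ccl17, Ccl20, Ccl22, Ccl26) never passed the filter. Ccl22, which attracts CCR4-bearing T cells, measured 0.0706, 0.0860 and 0 FPM in the control libraries and 0.320, 0.966 and 0.802 FPM in the LIDPAD libraries at week 16 and 0.106, 0.102, 0 and 0.207 FPM in the control libraries and 0.533, 1.20, 1.71, 0.619 and 0.909 FPM in the LIDPAD libraries at week 32. LIDPAD was above control in every library of both weeks, and the fit with no filter called both (log2 change 1.08 ± 0.23, adjusted p = 0.00617 and log2 change 1.26 ± 0.25, adjusted p = 0.00853). Ccl20, the CCR6 ligand, held 2.46 FPM in control library 3 of week 48 and 0 in control libraries 1 and 2.

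Of 7 myeloid receptors 4 passed the filter at weeks 16 and 32, among them Cx3cr1, Ccr2 and Ccr1. Cx3cr1 and Ccr1 met its minimum through LIDPAD libraries alone in both weeks, and Ccr2 did at week 32. These 3 genes were called higher in both weeks, with no filter too, where 7.98% (week 16) and 8.31% (week 32) of all genes were called higher. Cx3cr1 had the largest change of all tested members at weeks 16, 32 and 48. It measured 0.495 and 0.375 FPM in the control libraries and 2.08 and 2.23 FPM in the LIDPAD libraries at week 8 (log2 change 1.51 ± 0.21, adjusted p = 0.0135) and 0.910 and 0.487 FPM in the control libraries and 3.99 and 3.89 FPM in the LIDPAD libraries at week 12 (log2 change 1.91 ± 0.23, adjusted p = 0.00114). In week 16 it reached 11.4, 12.0 and 10.1 FPM against 0.461, 0.649 and 0.693 FPM (log2 change 3.41 ± 0.18, adjusted p = 6.45e-07), and in week 32 31.5, 7.15, 23.7, 10.7 and 13.6 FPM against 0.374, 0.294, 0.419 and 0.602 FPM (log2 change 4.09 ± 0.37, adjusted p = 5.8e-05). All control libraries of these weeks were under 1 FPM and all LIDPAD libraries above 2 FPM. Week 48 held 0.887, 1.17 and 9.18 FPM in the control libraries and 16.1, 12.3, 15.7 and 16.6 FPM in the LIDPAD libraries (log2 change 2.47 ± 0.60, adjusted p = 0.0411). Control library 3 was 8 or more FPM above the other 2 control libraries, and without it the change was 3.35 with an adjusted p of 2.08e-07. Exons of Cx3cr1 share 78 bases with the predicted gene Gm33858.

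Ccr2, the receptor that marks inflammatory monocytes, was called in the same 5 weeks. It measured 1.48 and 1.10 FPM in the control libraries and 4.78 and 6.24 FPM in the LIDPAD libraries at week 8 (log2 change 1.74 ± 0.20, adjusted p = 0.00928), 1.26, 1.89 and 1.84 FPM in the control libraries and 15.2, 13.7 and 16.7 FPM in the LIDPAD libraries at week 16 (log2 change 2.87 ± 0.17, adjusted p = 1.77e-06) and 1.37, 0.753, 1.04 and 3.13 FPM in the control libraries and 11.6, 13.0, 18.0, 18.0 and 18.6 FPM in the LIDPAD libraries at week 32 (log2 change 3.08 ± 0.29, adjusted p = 6.64e-05). The diets were apart by more than 3 FPM each time. At week 12 the change was 1.95 (adjusted p = 0.000924). In week 48 control values were 2.5, 5.06 and 12.7 FPM and LIDPAD values were 28.6, 21.0, 22.1 and 21.8 FPM (log2 change 1.97 ± 0.43, adjusted p = 0.0283), a change of 2.54 without control library 3.

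Ccr1, a receptor of neutrophils and macrophages, had no read in 2 of 3 control libraries of week 16 and 1.03, 1.18 and 1.38 FPM in LIDPAD (log2 change 1.67 ± 0.25, adjusted p = 0.000604). In week 32 the values were 0.327, 0, 0.439 and 0.690 FPM in the control libraries and 5.64, 1.40, 1.39, 2.15 and 1.28 FPM in the LIDPAD libraries (log2 change 1.62 ± 0.39, adjusted p = 0.011), and without LIDPAD library 1, the highest, the change was 1.30 (adjusted p = 0.00925). Ccr1, Ccr3 and Ccr2 lie in this order within chr9:123962124-124113557 (GRCm38). Ccr3, the eosinophil receptor between them, never passed the filter and stayed at or under 0.505 FPM in every library.

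Of the lymphoid and other receptors, Cxcr4 rose and the rest gave no call. Cxcr4, carried by most leukocytes and by endothelium, measured 0.760 and 0.606 FPM in the control libraries and 2.14 and 2.03 FPM in the LIDPAD libraries at week 12 (log2 change 1.13 ± 0.21, adjusted p = 0.00916) and 0.608, 0.526 and 0.649 FPM in the control libraries and 2.66, 3.17 and 4.30 FPM in the LIDPAD libraries at week 16 (log2 change 1.80 ± 0.22, adjusted p = 0.000158). In week 32 LIDPAD libraries 1 and 2 were highest, in 0.673, 0.854, 0.641 and 1.05 FPM in the control libraries and 16.4, 12.3, 5.94, 2.65 and 3.40 FPM in the LIDPAD libraries (log2 change 2.44 ± 0.45, adjusted p = 0.00267). Without library 1 the change was 2.13 (adjusted p = 0.00305). Week 48 gave 0.569, 0.945 and 1.74 FPM in the control libraries and 3.74, 5.26, 4.36 and 3.73 FPM in the LIDPAD libraries (log2 change 1.65 ± 0.26, adjusted p = 0.0146), and the diets did not overlap in any of the 4 weeks. Its ligand gene Cxcl12 was lower or not called in the same weeks.

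Cxcr6, carried by liver natural killer T cells and resident T cells, was tested in all 7 weeks and called in 0, with changes from -0.40 to 0.71. In week 32 it measured 1.6, 1.55, 0.834 and 1.49 FPM in the control libraries and 4.77, 1.63, 2.44, 2.68 and 1.88 FPM in the LIDPAD libraries (log2 change 0.71 ± 0.28, adjusted p = 0.081). Cxcr3, the receptor of CXCL9 and CXCL10, did not pass the filter in any single week. In week 32 it measured 0.436, 0, 0.302 and 0.0683 FPM in the control libraries and 3.09, 1.09, 1.36, 0.712 and 0.587 FPM in the LIDPAD libraries and was called with no filter (log2 change 1.32 ± 0.36, adjusted p = 0.037). Ccr7 likewise was called at week 32 with no filter (log2 change 1.22 ± 0.24, adjusted p = 0.00809). Ccr9, the CCL25 receptor, was tested in 6 weeks and called in 0 (changes from -0.21 to 0.25), and 1932 of its exon bases are shared with other genes. Xcr1, the receptor of cross-presenting dendritic cells, was tested at week 48 alone (log2 change 0.34 ± 0.22, adjusted p = 0.372). T cell markers summed to 3.17, 2.46, 3.02 and 2.94 FPM in control and 15.7, 21.7, 19.9, 35.5 and 36.3 FPM in LIDPAD libraries at week 32. Of the 8 markers on that list 1, Themis, passed the filter at week 16 and 3 did at week 32. Themis was called in both weeks and Cd8a at week 32. With so few markers above the filter, the sums do not stand for the list as a whole. The part of T cell RNA in these receptor values was not tested.

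Among the atypical receptors, Ackr3, which removes CXCL12, was the only member called, at week 48 with 0.324, 0.0428 and 0.471 FPM in the control libraries and 1.63, 0.881, 1.02 and 1.52 FPM in the LIDPAD libraries (log2 change 1.20 ± 0.27, adjusted p = 0.0337). The call held without control library 3 and was lost without control library 1, control library 2 or LIDPAD library 2 (adjusted p from 0.0712 to 0.0909), and with no filter its adjusted p at week 48 was 0.0531. Under the filter at weeks 16 and 32, it was higher in the fit with no filter (log2 change 1.37 ± 0.23, adjusted p = 0.00129 and log2 change 1.46 ± 0.24, adjusted p = 0.00272), with 0.112, 0, 0 and 0.207 FPM in the control libraries and 1.51, 0.788, 1.59, 0.819 and 0.853 FPM in the LIDPAD libraries at week 32. Ackr4, which clears CCL19, CCL21 and CCL25, was tested in all weeks and called in 0, from -0.85 (adjusted p = 0.119) at week 32 to 0.94 (adjusted p = 0.203) at week 4. Ackr2, a scavenger of inflammatory CC chemokines, was called in 0 of 7 weeks as well, with changes from -0.65 to 0.20. Ackr1, the receptor of erythroid and venular endothelial cells, stayed under the filter, and LIDPAD library 1 of week 32 held 2.35 FPM of it, with erythroid markers summing to 1230 FPM in that library and 204 to 365 FPM in the others of that week. The part of erythroid RNA in this value was not tested. Ackr1 shares 361 exon bases with Cadm3 on its own strand and Ackr4 shares 479 with Acad11.

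Per kilobase of exon, which allows genes to be set side by side, Cxcl12 had the highest mean level over the 18 control libraries (15.2 FPM per kb, SD 3.6), followed by Ccl9 (10.4, SD 6.12), Cxcl1 (5.12, SD 6.02), Cxcl9 (2.38, SD 1.70), Ccl6 (2.32, range 1.09 to 5.71), Ccl27a (1.78, SD 0.445) and Cxcl16 (1.71, SD 0.784). Neighbours in this order differed by less than the larger of their SDs. The most abundant receptors were Ackr4 (1.08 FPM per kb), Cxcr6 (0.853) and Ackr2 (0.678). In the 20 LIDPAD libraries Cxcl12 stood at 15.0 FPM per kb, Ccl9 at 10.7, Ccl6 at 9.72, Cxcl1 at 5.40 and Cxcl16 at 4.22, and Cx3cr1 (2.18), Cxcr4 (2.14) and Ccr2 (1.90) were above Cxcr6 (1.10). These means pool weeks that were normalized separately.

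The LIDPAD libraries of week 32 differed among themselves. Cx3cl1, Cxcl16, Cxcr4 and Ccl9 were higher in libraries 1 to 3 than in libraries 4 and 5, whereas Cxcl10 was higher in libraries 3 to 5 than in libraries 1 and 2. Libraries 1 to 3 of both diets share the week 16 division of reads and the others that of week 48. Fitting the sets apart gave 15 higher and 0 lower members in the former (15.8% and 7.24% of all genes) and 14 higher and 1 lower in the latter (27.0% and 19.6%), where 1 control library is assumed to vary like the LIDPAD libraries. With the division as a term, 14 were higher and 1, Ackr4, was lower.

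Whether a change depended on the week was asked in 1 limma fit of all 14 groups, which compares only within-week changes. The change depended on the week for 11 of 39 tested members, against 10.7% of all tested genes. Among them were Cx3cr1, Ccr2, Ccl5, Ccl3, Cxcl16, Cxcr4, Ccl6, Cx3cl1, Cxcr3 and Ccl2. The filter of this fit asked for 1 FPM in at least 2 libraries of any week or diet. Ccl5 reached 1 FPM only in LIDPAD libraries of weeks 16, 32 and 48. Ccl3 did so only in those of weeks 32 and 48, and Cxcr3 only in those of week 32. A gene that passed only there had to be high in late LIDPAD libraries, so the counts of this fit are descriptions. For Cx3cr1 the mean change over weeks 1 and 4 was 0.49 and that over weeks 16, 32 and 48 was 3.32, a difference of 2.84 ± 0.46 (adjusted p = 0.000234). The same late-minus-early difference was 2.33 ± 0.37 for Ccr2 (adjusted p = 0.000212) and 2.10 ± 0.47 for Ccl6 (adjusted p = 0.00315). It was called higher for 18 members (11.0% of all genes) and lower for 0 (5.38%). Cxcl10 (0.52 ± 0.53) and Cxcl1 (-0.30 ± 0.84) were not called. Leaving out week 4 control library 2 reduced the 11 to 6, and leaving out week 48 control library 3 raised them to 17.

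Control library 3 decided how many members were called at week 48. Without it 16 were higher and 1 (Ccl27a) lower, with 22.3% and 15.4% of all genes called, and without any other library of that week the total was 0 to 4. Added to the 7 genes above were Cxcl16 (1.65), Cx3cl1 (2.11), Cxcl9 (1.24), Cxcl14 (1.65), Ccr1 (1.39), Ccl2 (1.67), Cxcr6 (0.58), Cxcl10 (1.11) and Ccl19 (0.88). At week 4, leaving out control library 1 gave 0 higher and 5 lower members (Ccl6, Ccl9, Cxcl10, Cxcl16, Cxcl9; 3.17% and 2.95% of all genes), and leaving out control library 2 gave 1 higher (Ackr4) and 1 lower (Ccl9; 1.04% and 0.849%). Week 8 calls numbered 3 without LIDPAD library 1 and 0 without LIDPAD library 2, and week 12 calls 5 without LIDPAD library 2. Calls over all weeks numbered 55. In every leave-one-out fit that tested the gene, 12 of 15 calls held at week 16, 12 of 13 at week 32 and 0 of 7 at week 48. The 12 at week 32 include Ccl19, which was not tested without LIDPAD library 1. Calls were lost at weeks 1, 8 and 12 too, where leaving out a library leaves 1 in a group.

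Pathway genes around the members were called higher most often at weeks 16 and 32. Of all tested genes 3.85% were called higher at week 8, 8.99% at week 12, 16.3% at week 16, 18.0% at week 32 and 6.54% at week 48, and the counts of the 3 lists that follow are read against these. Of 22 tested genes that carry the receptor signal inside leukocytes, 5 were higher at week 8, 6 at week 12, 15 at week 16, 16 at week 32 and 12 at week 48, and limma called 0 lower in any week. Rgs2 (1.95 ± 0.23, adjusted p = 0.000135) and Rgs1 (1.56 ± 0.31, adjusted p = 0.00349), which dampen G protein signals, were among those higher at week 16. Gnai2, the main inhibitory G protein subunit behind these receptors, was 0.69 ± 0.12 higher (adjusted p = 0.0013). A further list holds cytokines and transcription factors that induce chemokine genes, and regulators of these. Of its 11 tested genes, 1 (Tnfaip3) was higher at week 8, 3 at week 12, 5 at week 16 and 8 at week 32. Tnfaip3 is counted in each of these weeks. At week 48, 0 were higher and 3 had an unadjusted limma p under 0.05. Tnfaip3, an NF-kappa-B target and inhibitor, was higher by 2.08 ± 0.21 at week 16 (adjusted p = 4.42e-05). Among chemokine-like and processing genes limma called 0 of 9 tested at week 8 and 0 of 10 at week 12, where 1 gene each had an unadjusted p under 0.05. Of 11 tested later, 7 were higher at week 16, 9 at week 32 and 4 at week 48. At weeks 1 and 4 limma called 0 genes of the 3 lists, in which 0 to 5 genes had an unadjusted p under 0.05. Cmklr1, the chemerin receptor of macrophages, was higher by 1.82 ± 0.30 at week 32 (adjusted p = 0.00147), and Pf4, a platelet chemokine whose symbol lies outside the name rule, by 1.70 ± 0.43 (adjusted p = 0.0136).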

How the data were processed

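Liver RNA-seq values of 152 deposited samples in 7 tables (1 per week, 54532 Ensembl genes) were used. The deposited unit is a signal: the authors' read counts per gene divided by a size factor and given per 1000000 (FPM). Per the submitters' processing notes, HISAT2, featureCounts, DESeq2 and the build GRCm38 were used. Versions and the strand setting are not given in the sources used here. Divided by that step, 100% of values were whole reads to within 0.02, also in 4 columns whose single-read step lies near 0.1 FPM.

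Columns whose counts differed by a chi-square of 1.98 to 2.27 per gene (2.65 or more between other columns) were taken as parts of 1 library and averaged, which gave 38 libraries with depths, in units of 1000000 reads, of 10.9 to 53.8 (median 28.95). Within each week limma 3.58.1 (R 4.3.3) compared the diets on log2(FPM + 0.5) with a mean-variance trend, two-sided, over genes that reached 1 FPM in a number of libraries equal to the size of the smaller group, with Benjamini-Hochberg adjustment over all tested genes and a threshold of 0.05. A joint limma fit of 14 groups tested the dependence on week. The fits were tested on simulated data. Alternatives were pseudocounts of 0.1 and 1 FPM, a filter of 5 FPM or none, rescaled totals, no trend, edgeR 4.0.16 and DESeq2 1.42.0 on recovered reads, a replicate block, each column as a sample, a joint fit and leaving out each library. After the data were seen, the 2 sets of week 32 libraries, defined by how reads were divided among columns, were added.

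Named were an index list of members and every member called, by role, except genes that are not reported here. Members, roles, pathway genes and markers were chosen with earlier results of these data known. Gene positions and exon overlaps came from GENCODE vM21 (GRCm38) and promoter windows from RefSeq. Tables used pandas 2.3.3 and numpy 2.4.6 under Python 3.11.15, and plots matplotlib 3.10.9.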

Additional observations from a re-analysis of the deposited data

Results flagged for a closer look

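Of 78 groups of 4 or 5 libraries examined, 9 had a library whose gap to its neighbour was large for the range of the group. For a single group chance gives about 1 in 20. The groups are 26 members in the same libraries and not independent, so an excess over chance was not tested. LIDPAD library 1 of week 32 was the high one for Ackr1 (2.35 FPM, others 0.379 to 0.704), Ackr2 (3.86 FPM, others 1.96 to 2.34), Ccr1 (5.64 FPM, others 1.28 to 2.15) and Cxcl13 (2.92 FPM, others 0.131 to 0.564). LIDPAD library 2 of that week held 76.6 FPM of Ccl6 (others 14.5 to 23.5), and control library 4 held 2.59 FPM of Ccl27a (others 4.24 to 4.52). In week 48 LIDPAD library 4 was high for Ackr1 (1.40 FPM, others 0.525 to 0.648) and Cxcl16 (16.9 FPM, others 14.4 to 14.6), and LIDPAD library 1 for Ccr2 (28.6 FPM, others 21.0 to 22.1).

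The diet difference depended on the week for 11 members in the joint limma fit, of which Ccl5, Ccl3 and Cxcr3 passed its filter only through late LIDPAD libraries. Among these, the adjusted p of the F test was 0.00221 for Cx3cr1, 0.00258 for Ccr2, 0.00258 for Ccl5, 0.00439 for Ccl3, 0.00644 for Cxcl16, 0.0139 for Cxcr4, 0.0224 for Ccl6, 0.0246 for Cx3cl1, 0.0463 for Cxcr3 and 0.0474 for Ccl2.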

How the results depend on the processing

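Pseudocounts of 0.1 and 1 FPM kept all 55 member calls, edgeR kept 51, DESeq2 kept 53 and the joint fit of all groups kept 32. No called change reversed under any alternative listed for it. The number of members called moved as follows, with the cause not tested unless fewer genes or libraries entered. With a filter of 5 FPM, which tests fewer members, it was 2 at week 8, 5 at week 12, 9 at week 16, 6 at week 32, 4 at week 48 and 7 for the dependence on week. Over all genes that filter gave 342 higher and 163 lower at week 8, 805 and 707 at week 12 and 1506 and 1421 at week 16. At week 32 the split was 1440 and 1119, and at week 48 it was 738 and 490. With no filter 25 members were called at week 16 (7.98% of all genes higher and 5.18% lower) and 20 at week 32 (8.31% and 3.07%). Rescaled totals gave 0 members at week 1 and 12 at week 48 (19.3% of all genes higher and 1.27% lower), and no mean-variance trend gave 0 at week 1. Over all genes of week 1 rescaled totals gave 85 higher and 131 lower, and no trend gave 15 and 48. DESeq2 gave 1 member at week 4 (175 higher and 133 lower of 13237 genes) and 21 for the dependence on week, and edgeR gave 4 at week 48. Each column as a sample, which counts parts of a library as replicates, gave 8 at week 1, 3 at week 4, 13 at week 8, 14 at week 48 and 31 for the dependence on week. Many of all genes were called there too, 1400 higher and 1439 lower of 12386 at week 1 and 1561 and 1364 of 12947 at week 4. At week 8 these were 2484 and 2373 of 13011, and at week 48 3201 and 2528 of 14672. The joint fit gave 0 at week 1, 0 at week 8, 1 at week 12, 28 at week 32 and 12 at week 48. Of its 16439 genes it called 3 higher and 7 lower at week 1, 18 and 9 at week 8 and 116 and 125 at week 12. At week 32 it called 4561 and 2653, and at week 48 1464 and 824. These member counts are descriptions. Over all tested genes, edgeR on recovered reads called 2164 higher and 1784 lower at week 16 (limma 2262 and 1666) and 612 and 569 at week 48 (limma 968 and 494).

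Leaving out each library in turn gave 0 to 4 calls at week 1, 0 to 5 at week 4, 0 to 9 at week 8, 5 to 13 at week 12, 13 to 15 at week 16, 11 to 15 at week 32, 0 to 17 at week 48 and 6 to 17 for the dependence on week. In weeks 1 to 12 this leaves 1 library in a group, which is then assumed to vary like the other group.

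Same-numbered libraries of the diets correlated at -0.12 to 0.12 in their deviations. That does not settle whether they were paired, since at week 32 libraries 1 to 3 of both diets share a division of reads. With the replicate block the calls numbered 1 at week 1, 1 at week 4, 6 at week 8, 12 at week 12, 14 at week 16, 12 at week 32, 0 at week 48 and 10 for the dependence on week. Over all genes the block gave 214 higher and 154 lower at week 4 (16 and 22 without it). At week 48 it gave 3 and 13 (968 and 494 without it). Members near 1 FPM rest on few reads in the shallowest libraries.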
